A study of Mus musculus with 2 samples.

Results

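Chromatin accessibility was examined at 29 genes of glycolysis and the pentose phosphate pathway, out of 21938 protein-coding genes, in the mouse cell line G1E. The genes were taken by name, with every isozyme of the set included. They run from the hexokinases through lactate dehydrogenase and from glucose-6-phosphate dehydrogenase through transaldolase. No value of these data set the choice, but earlier results of these data were known when it was made. ATAC-seq, which uses a transposase to tag accessible DNA with adapters, was done on 2 biological replicates of 50000 cells each, and both replicates form 1 group with no treatment and no control group. G1E cells are a line of erythroid progenitors without a functional Gata1 gene, of male C57BL/6J origin per the labels, so they stand for a maturation stage before red cell maturation and not for red cells. The labels do not state whether the replicates were grown as separate cultures, and the SD given here measures only the spread between these 2 libraries. The data were the authors' lists of accessible peaks on mm10, merged here into 21194 regions in replicate 1 and 22620 in replicate 2. The lists hold no read totals, so depth is unknown, and a gene without a listed region cannot be called closed.

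Glycolysis splits glucose into pyruvate, and lactate dehydrogenase returns the NAD+ that the pathway uses. The pentose phosphate pathway takes glucose 6-phosphate instead, and its oxidative branch makes NADPH while its non-oxidative branch exchanges sugars with glycolysis. Mature mammalian red cells have no mitochondria and depend on glycolysis for ATP and on the oxidative branch to keep glutathione reduced. Most steps are served by several genes whose isozymes differ between tissues: muscle, brain and liver forms stand beside forms found in most cells.

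The erythroid identity in the labels was checked on marker genes. Of 7 erythroid markers (Klf1, Gfi1b, Tal1, Nfe2, Epor, Slc4a1 and Ank1), 7 had a promoter region in both replicates. Of 12 markers of myeloid, lymphoid, liver, muscle and nerve cells, 0 had a region in both replicates and 1, a muscle marker, had it in 1 replicate. Of all protein-coding genes, 39.1% had one in both replicates. No markers were read for megakaryocytes, mast cells or stem cells, so the check does not separate erythroid cells from these.

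A promoter region, meaning a region within 1000 bp of any annotated start site of the gene, was listed for 22 of the 29 genes (75.9%) in replicate 1, against 40.5% of all protein-coding genes. In replicate 2 it was listed for 23 genes (79.3%), against 42.1%, which gives a mean of 77.6% ± 2.44 (SD, n = 2). In both replicates 22 of the set had one, where 39.1% of all protein-coding genes did. A gene with more annotated starts has more chances to be listed. Starts per gene were not compared between the set and all protein-coding genes. With the outermost 5′ end alone, 20 of the set had a region in both replicates, and the share of all genes was not computed for that setting. Eno2 had a region in replicate 2 alone, and Hk3, Aldoc, Pgam2, Eno3, Pklr and Ldhb had none in either replicate. No test was made, because there is 1 group and the genes were chosen with earlier results of these data known.

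Strength was read as the percentile of a region's signal, the value given to a peak by the authors' peak caller, among all regions of the same replicate. For the 22 genes with a region in both replicates, the strongest region had a median percentile of 56.2, averaged over replicates, and genes ranged from 21.8 to 93.9. Over the 8571 protein-coding genes with a promoter region in both replicates the median was 72.5, and 9 of the 22 genes lay above it. With any annotated start counted, the pathway genes were thus listed more often than genes in general. Most of those listed were weaker than the typical listed promoter. The percentile differed between replicates by a median of 9.42 points. It differed by more than 20 points in 6 genes: Hk2, Tpi1 and Ldha were higher in replicate 2, and Gpi1, Pgls and Tkt were higher in replicate 1.

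**Figure D1:**
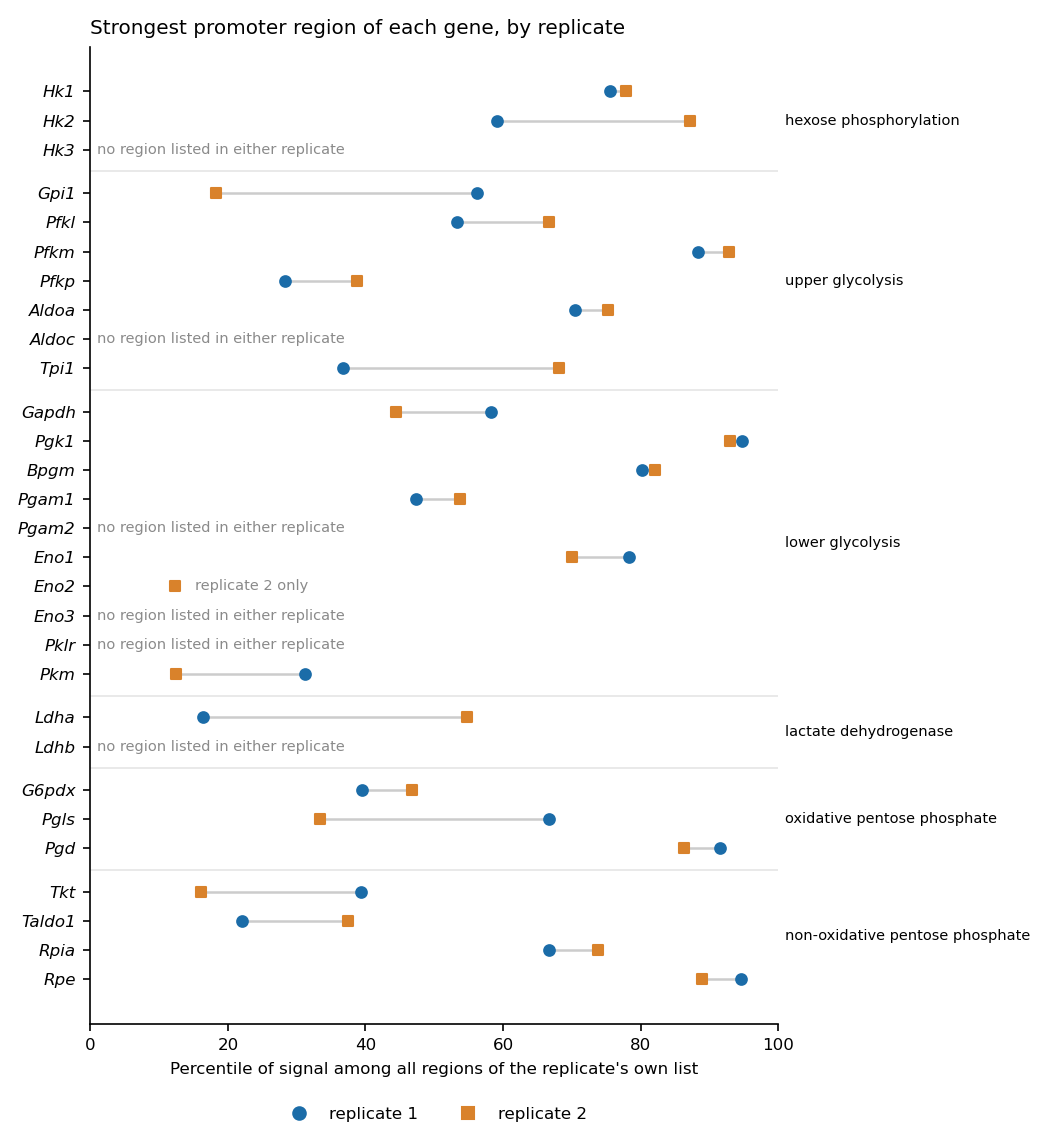
Percentile of signal (horizontal axis, 0 to 100 within the replicate's own list) of the strongest promoter region of each of the 29 genes, grouped by pathway step, with circles for replicate 1 and squares for replicate 2. Pgk1, Rpe, Pfkm and Pgd lie at the right in both replicates, while Pkm, Tkt, Taldo1 and Pfkp lie at the left, and 6 genes have no listed region.

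Hexokinases commit glucose to the cell by phosphorylating it. The strongest region of Hk1, the hexokinase of most tissues and of red cells, had a signal of 11.2 in replicate 1 and 12.7 in replicate 2, percentiles 75.5 and 77.8. Hk2, the insulin-responsive form of muscle and fat that is also common in growing cells, had 9.08 and 14.6, percentiles 59.1 and 87.2. Hk1 was therefore alike in rank in the replicates and Hk2 was not, and the order of the pair reversed between them. Hk3 had no region, and the nearest one in either replicate began 78.7 kb from its start sites, at the promoter of Uimc1.

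The regions of Hk1 did not lie at its outermost 5′ end. Its 12 annotated start sites form 9 clusters, where a cluster joins neighbouring sites no more than 1000 bp apart, and 3 clusters had a region in both replicates. These lay 37.2, 39.4 and 52.1 kb inside the outermost 5′ end, and the strongest was the last, at the start of a lone transcript, at chr10:62327534-62328020 in replicate 1. Hk1 is known to make a red cell form from a first exon of its own, and which annotated start begins it was not examined. The clusters at the outermost 5′ end and 4.81 kb inside it, which begin 4 and 7 annotated transcripts, had none.

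Glucose-6-phosphate isomerase, phosphofructokinase, aldolase and triosephosphate isomerase carry the sugar to triose phosphates. Gpi1, the isomerase, had 8.75 in replicate 1 and 6.12 in replicate 2, and its percentile of 56.3 against 18.2 was among the least alike of the set. All 3 phosphofructokinase genes had a region in both replicates. Pfkl, the liver-type subunit, had 8.47 and 10.9, percentiles 53.3 and 66.6. Pfkm, the muscle-type subunit, had 13.6 and 16.3, percentiles 88.4 and 92.8. Pfkp, the platelet-type subunit, had 6.30 and 7.81, percentiles 28.3 and 38.8. The order Pfkm, Pfkl, Pfkp was the same in both replicates, and the ranges of the 3 genes did not overlap. Red cell phosphofructokinase is known to be built from the liver-type and muscle-type subunits.

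The strong region of Pfkm lay 15.9 kb inside the outermost 5′ end, at the start of a lone transcript. A second region, 0.854 kb inside the outermost 5′ end in replicate 1, had signals of 10.25 and 10.02 and also lay within 1000 bp of a start site of Senp1, so it cannot be assigned to Pfkm alone. The start site cluster between them, 2.28 kb inside the 5′ end, had no region.

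Of the aldolases, Aldoa, the form of muscle and red cells, had 10.5 and 12.2, percentiles 70.5 and 75.3, 1.47 and 1.45 kb inside its outermost 5′ end, and Aldoc, the brain form, had none in either replicate. The authors' lenient list of replicate 2 held a region of signal 5.76 at Aldoc, percentile 45.9 of that list, and the lenient list of replicate 1 held none. Tpi1 had 6.95 and 11.1, percentiles 36.7 and 68.1, so its rank depended on the replicate.

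Lower glycolysis, from glyceraldehyde-3-phosphate dehydrogenase to pyruvate kinase, held both the strongest region of the set and 4 of the 7 genes without a region in both replicates. Pgk1, the phosphoglycerate kinase of all cells but late sperm cells, had 15.6 and 16.3, percentiles 94.7 and 93.0, with −log10 p values of 53.6 and 63.7. Its region lay at chrX:106186708-106187174 in replicate 1, with the summit at −91 bp from the start site. Gapdh, the dehydrogenase, had 8.99 and 8.32, percentiles 58.3 and 44.5, at a start site about 0.75 kb inside its outermost 5′ end. A second Gapdh region covered the outermost start itself with 6.35 and 7.10, percentiles 28.9 and 31.1. Replicate 2 also listed a weak region of 3.79, with its summit 4.81 kb from the outermost 5′ end and just past the 3′ end of the gene. The region over the outermost start was the weaker of the pair found in both replicates.

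The Pgk1 promoter is shown because Pgk1 is a known target of the hypoxia-inducible factors and was the strongest of the set. Capitals mark ACGTG, a core of the hypoxia response element, or its reverse complement, and 2 such strings lie in the 250 bases upstream of the start, one on each strand.
Pgk1 promoter, mm10 chrX:106186850-106187099, plus strand: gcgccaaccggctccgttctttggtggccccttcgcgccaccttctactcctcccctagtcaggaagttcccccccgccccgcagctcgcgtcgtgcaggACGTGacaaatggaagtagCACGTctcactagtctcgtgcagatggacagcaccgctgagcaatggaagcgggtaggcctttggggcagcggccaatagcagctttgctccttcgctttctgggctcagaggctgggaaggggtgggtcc

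Bpgm, the bisphosphoglycerate mutase that makes the 2,3-bisphosphoglycerate of red cells, had 12.0 and 13.5, percentiles 80.2 and 82.1. Its region was among the stronger ones of the set, and both replicates placed the summit within 11 bp of the start site. The mutases that serve glycolysis itself divided by tissue form. Pgam1, the form of most tissues, had 7.91 and 9.28, percentiles 47.3 and 53.7. Pgam2, the muscle form, had none, and the nearest region began 2.12 kb from its start site in replicate 1 and 1.84 kb in replicate 2.

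The promoters of the pair differ in CpG dinucleotides, marked in capitals in the 250 bases upstream of the outermost start in the annotations used. Pgam1 carries 22 and Pgam2 carries 1.
Pgam1 promoter, mm10 chr19:41911621-41911870, plus strand: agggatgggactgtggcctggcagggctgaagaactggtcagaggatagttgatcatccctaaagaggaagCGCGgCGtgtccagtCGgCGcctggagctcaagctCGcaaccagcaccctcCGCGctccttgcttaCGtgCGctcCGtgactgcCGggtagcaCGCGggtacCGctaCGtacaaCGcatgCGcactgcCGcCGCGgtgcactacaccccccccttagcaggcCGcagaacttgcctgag
Pgam2 promoter, mm10 chr11:5803797-5804046, minus strand: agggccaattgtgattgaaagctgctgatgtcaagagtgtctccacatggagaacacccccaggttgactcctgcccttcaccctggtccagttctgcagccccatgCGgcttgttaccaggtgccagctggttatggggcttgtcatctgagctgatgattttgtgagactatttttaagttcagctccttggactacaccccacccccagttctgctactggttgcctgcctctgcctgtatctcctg

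Eno1, the enolase of most cells, had 11.7 and 11.4, percentiles 78.4 and 70.0, at a start 0.519 kb inside its outermost 5′ end. Eno2, the enolase of neurons, had 5.62 in replicate 2, percentile 12.3, and nothing in the thresholded list of replicate 1, while the lenient list of replicate 1 held a region of 3.87. Eno3, the enolase of muscle, had none. Of the enolases, only Eno1 was listed in both replicates, and Eno2 stood low in the list of replicate 2.

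Pyruvate kinase makes the last ATP of glycolysis. Pkm, which encodes the M1 and M2 forms of most tissues, had 6.56 and 5.65, percentiles 31.2 and 12.5. Pklr, which encodes the liver and red cell forms from separate first exons, had none in either replicate, and the nearest region began 3.40 kb from its start sites in replicate 1 and 3.47 kb in replicate 2. The gene of the red cell form was thus without a listed promoter, and the gene of the general forms had one of the weakest regions of the set.

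In the same layout as above, with CpG in capitals, the Pkm promoter carries 13 CpG and the Pklr promoter 3.
Pkm promoter, mm10 chr9:59656118-59656367, plus strand: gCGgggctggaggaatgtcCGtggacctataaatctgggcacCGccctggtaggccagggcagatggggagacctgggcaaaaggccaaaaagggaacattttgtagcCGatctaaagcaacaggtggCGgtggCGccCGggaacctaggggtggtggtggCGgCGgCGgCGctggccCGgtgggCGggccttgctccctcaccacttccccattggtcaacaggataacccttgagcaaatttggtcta
Pklr promoter, mm10 chr3:89135892-89136141, plus strand: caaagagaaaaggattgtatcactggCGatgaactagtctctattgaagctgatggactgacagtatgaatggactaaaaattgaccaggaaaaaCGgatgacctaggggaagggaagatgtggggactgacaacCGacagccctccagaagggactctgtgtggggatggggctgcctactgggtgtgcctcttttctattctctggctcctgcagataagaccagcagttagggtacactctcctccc

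Lactate dehydrogenase is a tetramer of A and B subunits. Ldha, the A subunit, had a region at the start of its main cluster, which begins 13 of its annotated transcripts and lies 4.36 kb inside the outermost 5′ end. That region had a signal of 4.13 in replicate 1, percentile 3.19, and 9.41 in replicate 2, percentile 54.7. Replicate 1 held a second and stronger region of 5.48, percentile 16.3, 5.59 kb inside the outermost 5′ end, which replicate 2 did not list. The strongest regions of Ldha differed by 38.4 percentile points, the largest difference between replicates among the 22 genes. The authors' conservative list over both replicates, read as an alternative chosen after seeing the data, held 21 of the genes and lacked Ldha. Ldhb, the B subunit, had no region, and the nearest began 25.7 kb away in both replicates.

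Unlike the other isozymes without a region, Ldhb has CpG throughout its promoter, 14 in the 250 bases shown, against 25 in Ldha.
Ldha promoter, mm10 chr7:46845554-46845803, plus strand: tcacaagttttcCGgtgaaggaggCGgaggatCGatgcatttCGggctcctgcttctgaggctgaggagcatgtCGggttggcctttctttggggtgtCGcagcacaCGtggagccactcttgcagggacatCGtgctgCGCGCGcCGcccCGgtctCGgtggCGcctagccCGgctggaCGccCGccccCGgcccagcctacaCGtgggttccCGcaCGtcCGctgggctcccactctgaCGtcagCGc
Ldhb promoter, mm10 chr6:142507958-142508207, minus strand: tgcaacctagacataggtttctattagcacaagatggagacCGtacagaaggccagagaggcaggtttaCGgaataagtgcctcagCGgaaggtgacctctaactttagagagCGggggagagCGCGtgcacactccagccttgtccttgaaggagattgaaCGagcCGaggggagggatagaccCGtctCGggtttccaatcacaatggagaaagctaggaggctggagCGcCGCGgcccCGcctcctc

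Each of the 7 pentose phosphate genes was listed with a promoter region in both replicates. G6pdx, the dehydrogenase that starts the oxidative branch, had 7.21 and 8.58, percentiles 39.5 and 46.7, and its regions also lay within 1000 bp of a start site of Ikbkg on the other strand. Pgls, the lactonase, had 9.96 and 7.33, percentiles 66.6 and 33.3. Pgd, the dehydrogenase that makes the second NADPH, had 14.4 in both replicates, percentiles 91.5 and 86.4, and it stood above both other genes of the branch in each replicate.

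In the non-oxidative branch, Rpe, the ribulose phosphate epimerase, had 15.5 and 15.1, percentiles 94.6 and 88.8, and Rpia, the ribose phosphate isomerase, had 9.96 and 12.0, percentiles 66.6 and 73.7. The sugar-exchanging enzymes were weaker. Tkt, transketolase, had 7.19 and 5.87, percentiles 39.3 and 16.1. Taldo1, transaldolase, had 5.87 and 7.66, percentiles 22.03 and 37.5. The isomerase and the epimerase lay above transketolase and transaldolase in both replicates, with no overlap.

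The strongest regions sat on the start sites. Their summits lay a median of −31 bp from the nearest annotated start in replicate 1 and −40 bp in replicate 2, where negative values lie upstream, and within 150 bp of it in 21 of 22 genes in each replicate. The exception was Pgls, with its summit at −410 and −381 bp. The median width was 494 bp in replicate 1 and 536 bp in replicate 2.

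Most start clusters of these genes had no region. The 29 genes have 79 clusters, and 27 had a region in both replicates. The share of start clusters with a region was not computed over all protein-coding genes, so this count cannot be read as a trait of the set. In the 20 genes with several clusters, 21 of 70 clusters did, and apart from Hk1, Pfkm, Hk2 and Tpi1 no gene had it at more than 1 cluster. For Hk2 in replicate 1 and Tpi1 in replicate 2, a single region lay within 1000 bp of 2 clusters and was counted for each. Aldoa has a second annotation entry of 2 transcripts, at chr7:126800790-126809108, with no region. The entry with 12 transcripts was used.

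**Figure D2:**
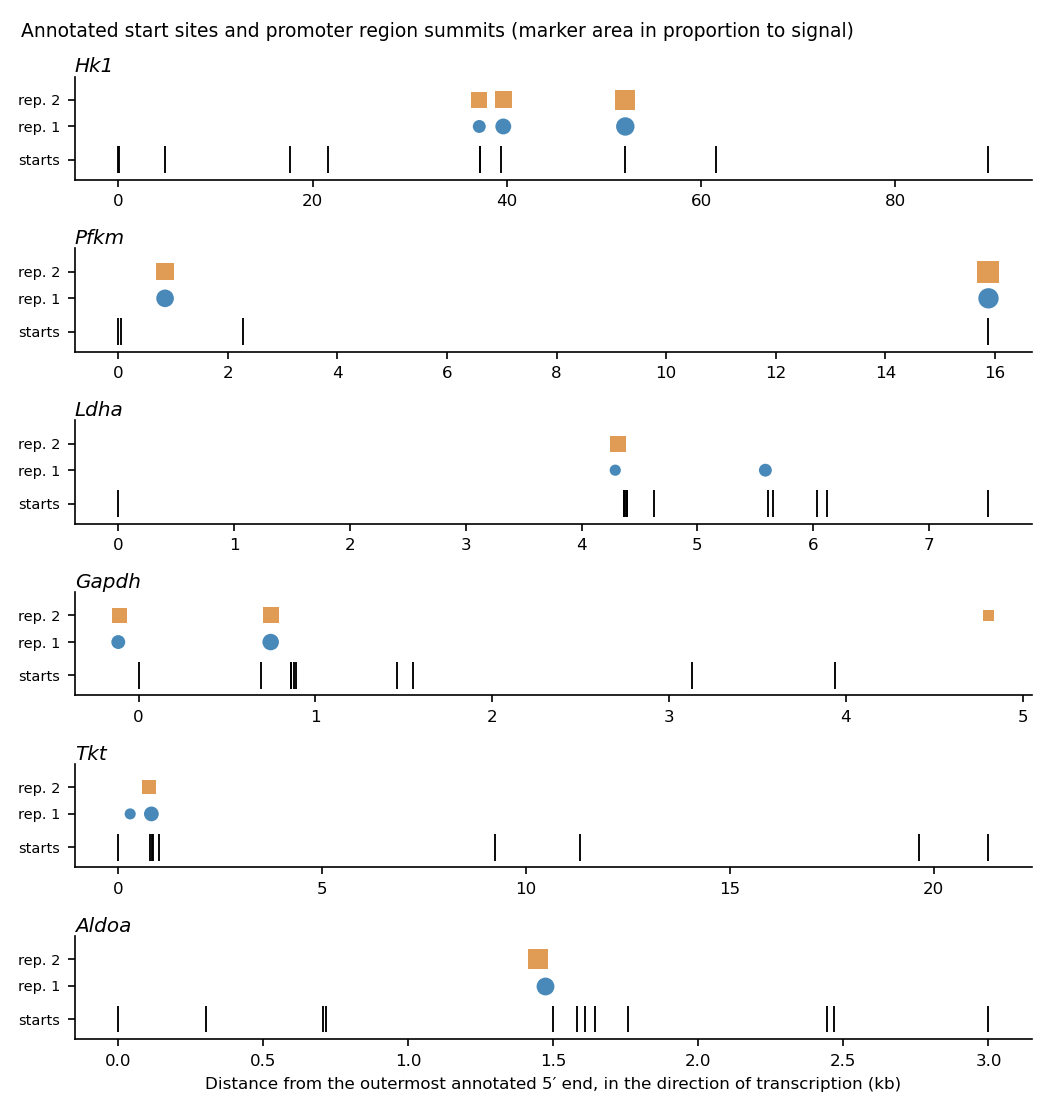
Annotated start sites (black ticks) and summits of promoter regions (circles for replicate 1, squares for replicate 2, area in proportion to signal) by distance in kb from the outermost annotated 5′ end in 6 genes. The regions of Hk1, the strong region of Pfkm and the regions of Ldha lie inside the gene and away from the outermost start, and Ldha has a second region in replicate 1 alone.

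Isozymes with and without a region differed in the sequence around their starts. The ratio of observed to expected CpG was taken in 300 bases, 250 before and 50 after each protein-coding start, and the highest value per gene was used. It ranged from 0.524 to 1.11 with a median of 0.818 in the 22 genes with a region in both replicates. In the other 7 it ranged from 0.0883 to 0.897 with a median of 0.259. Pgam2 at 0.0883, Aldoc at 0.141, Eno3 and Pklr at 0.259 and Hk3 at 0.452 were lowest, and Ldhb at 0.696 and Eno2 at 0.897 stood with the genes that had regions.

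The same division was present in the genome at large. Of 11817 protein-coding genes with a ratio of at least 0.6, 62.4% had a promoter region in both replicates, and of 10121 genes below it, 11.9% did. Of the pathway genes, 22 were at or above 0.6 and 20 of these had a region. The other 7 were below it and 2 of these, Tpi1 at 0.524 and Pfkm at 0.532, had a region. CpG content moved with the listing of promoters, and its part in the set's share was not tested.

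**Figure D3:**
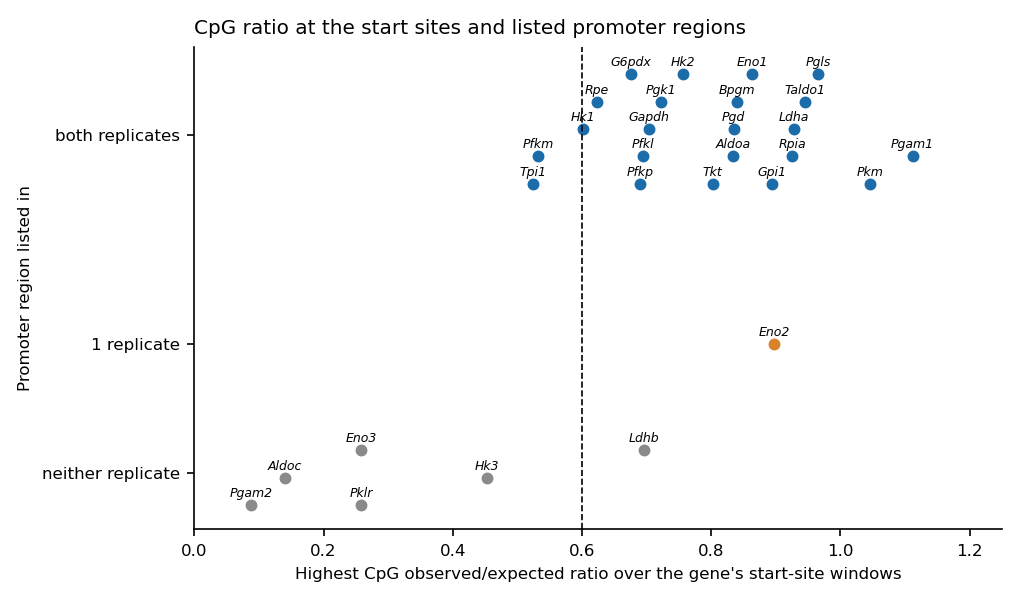
Highest CpG observed to expected ratio over the start-site windows of each gene (horizontal axis, no unit) for genes with a promoter region in both replicates, in 1 replicate or in neither; heights within a row only separate labels, and the dashed line marks 0.6. The 5 genes under 0.5 have no region, while Ldhb and Eno2 lie to the right of the line without a region in both replicates.

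Exact motif strings were counted on both strands in RefSeq promoter windows of the same 300 bases (GRCm38.p6, the assembly of mm10), in which all 29 genes were found. A core of the hypoxia response element, ACGTG or GCGTG, was in 21 of 29 gene promoters (72.4%), against 50.4% of 20150 windows and 71.5% of the windows with a CpG ratio of at least 0.6. The KLF string CCNCNCCC was in 23 (79.3%), against 57.9% and 74.3%. The SP string GGGCGG, whose reverse complement can overlap a KLF match, was in 20 (69.0%), against 47.8% and 74.5%. The shares of the set lay above those of all windows and close to those of windows rich in CpG. For a gene with several windows, only the one nearest the summit of its strongest region was counted, or the first listed without a region. The background kept every window of a gene. Windows of the set were thus partly chosen by accessibility, so their excess over all windows cannot be read as a trait of the genes.

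The CCAAT string of NF-Y was in 13 (44.8%), against 37.8% of all windows and 36.3% of CpG-rich ones. GATA strings, spelled AGATAA and AGATAG with either A or T as the first base, were in 6 (20.7%), against 25.3% and 13.5%, and those were Pfkm, Gapdh, Eno3, Pklr, Pkm and G6pdx. The E-box CACGTG, which contains ACGTG, was in 1 (3.45%), Ldha, against 8.03% and 11.4%. TATAAA was in 1 (3.45%), Eno2, against 12.1% and 5.33%. The antioxidant response string TGACNNNGC was in 3 (10.3%), Hk1, Aldoa and G6pdx, against 13.1% and 14.99%. The windows counted follow RefSeq starts and can differ from the promoter stretches printed above: the Pkm window counted, chr9:59656326-59656625, has a GATA string and no TATAAA, while the stretch printed for Pkm has TATAAA and no GATA string. A match is a stretch of letters and not an observed binding site.

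Distal regions were those present in both replicates that lay over 1000 bp from any annotated start, coding or not, and no more than 50 kb from the outermost 5′ end of a gene. Of the 29 genes, 18 (62.1%) had at least 1, against 32.3% of all protein-coding genes. There were 24 pairs of gene and region, made by 22 regions, because Tpi1 and Eno2 share 2 regions that lie between them. The mean per gene was 0.828, against 0.546 over all protein-coding genes. Eno1 had 3, and Tpi1, Eno2, Tkt and Rpia had 2 each, while 11 genes had none. Distance does not say which gene a region acts on. For 12 of the 22 the nearest protein-coding start belonged to one of the pathway genes. For 6, no other protein-coding gene had its outermost 5′ end within 50 kb. These 6 include the region upstream of Pgd, which lies in an exon of Kif1b with a Kif1b start 5.06 kb away.

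The distal regions ranged in signal from 4.46 to 14.95 in replicate 1 and from 4.10 to 14.4 in replicate 2. A percentile over 75 in both replicates was reached by 5 of 22. Those were the region 39.6 kb downstream of the Rpia 5′ end with 14.8 and 14.4, the region 36.3 kb downstream of the Eno1 5′ end with 14.95 and 12.5, and the region 23.9 kb upstream of Eno1 with 12.8 and 12.2. The others were the region 29.5 kb downstream of the Tkt 5′ end with 13.6 and 13.4 and an intronic region of Bpgm with 12.3 and 12.6. Tkt therefore had a distal region well above its own promoter in both replicates, and for Rpia the same held in both replicates. The Eno1 regions named here also lay above the Eno1 promoter, which had 11.7 and 11.4. The nearest protein-coding start was that of Rere, 8.66 kb away, for the downstream region and that of Car6, 11.5 kb away, for the upstream region.

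Among the genes without a promoter region in both replicates, 4 of 7 had a distal region, against 32.3% of all protein-coding genes. The share among all genes without a promoter region was not computed. Eno2 counts only through the 2 regions shared with Tpi1, 36.1 and 36.5 kb upstream of its 5′ end and nearest to a start of Spsb2. Pklr had 1 at 3.55 kb upstream, intergenic, with 7.42 and 7.53, percentiles 42.4 and 36.3. Pgam2 had 1 at 2.21 kb upstream with 4.77 and 5.48. Ldhb had 1 at 38.2 kb downstream of its 5′ end, in an intron of Gys2, with 8.54 and 8.06. The Pklr region was thus listed in both replicates at similar strength although no region was listed at the gene's starts. Other single regions lay 32.8 kb upstream of Pgk1 in an intron of Tlr13 with 9.55 and 13.4, 24.5 kb upstream of Pgd in an exon of Kif1b with 13.4 and 12.0, and 33.4 kb upstream of Hk1 in an intron of Hkdc1 with 7.61 and 5.76.

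**Figure D4:**
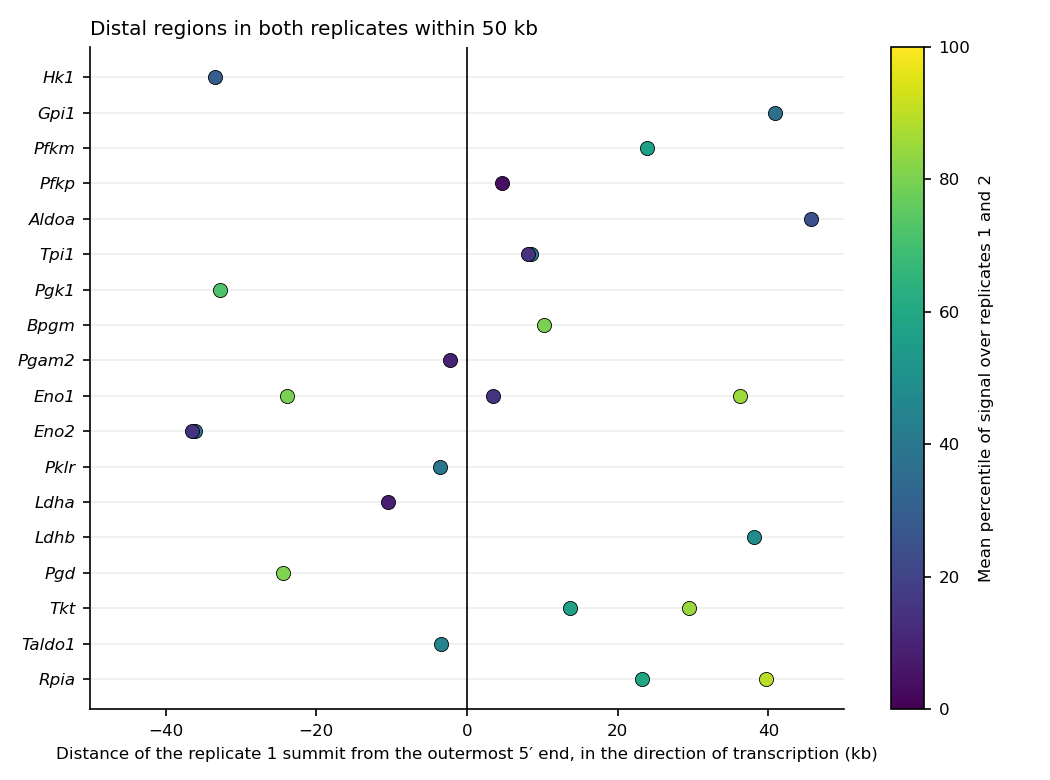
Distal regions in both replicates by distance of the replicate 1 summit from the gene's outermost 5′ end in kb (negative values lie upstream), coloured by mean percentile of signal. Pklr, Pgam2 and Taldo1 have their region within 4 kb upstream, Eno1 has 3 regions on both sides, and the Tpi1 and Eno2 points are the same 2 regions.

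The 3 distal windows shown, each 200 bases around the replicate 1 summit, are those of the red cell genes Pklr and Bpgm and of Pgam2, whose promoter was not listed. Capitals mark the GATA strings given above or their reverse complements. Pklr has 2, Bpgm 1 and Pgam2 2.
Pklr distal, mm10 chr3:89132493-89132692, plus strand: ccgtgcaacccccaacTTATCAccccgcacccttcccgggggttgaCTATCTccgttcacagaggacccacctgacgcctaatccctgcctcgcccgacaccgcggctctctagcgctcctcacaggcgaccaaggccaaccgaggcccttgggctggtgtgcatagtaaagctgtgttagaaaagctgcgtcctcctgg
Bpgm distal, mm10 chr6:34486368-34486567, plus strand: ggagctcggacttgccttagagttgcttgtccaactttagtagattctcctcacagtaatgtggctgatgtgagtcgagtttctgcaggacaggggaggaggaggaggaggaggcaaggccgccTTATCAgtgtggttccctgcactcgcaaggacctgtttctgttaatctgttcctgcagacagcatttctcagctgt
Pgam2 distal, mm10 chr11:5805847-5806046, plus strand: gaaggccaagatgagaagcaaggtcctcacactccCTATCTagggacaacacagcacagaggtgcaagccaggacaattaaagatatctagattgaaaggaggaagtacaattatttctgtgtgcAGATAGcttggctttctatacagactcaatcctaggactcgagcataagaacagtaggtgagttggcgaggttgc

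GATA strings were common at distal regions of these Gata1-deficient cells in general. They were in 14 of the 22 windows (63.6%), against 68.7% of 8227 distal windows, so the pathway's regions were not richer in them. The hypoxia response core was in 8 (36.4%), against 25.7%, and the RUNX string TGTGGT in 8 (36.4%), against 24.2%. The SP string was in 5 (22.7%), against 9.99%. With 22 windows, of which some adjoin each other, these shares are descriptions and were not tested.

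Genes around the pathways were read from lists chosen with earlier results known, by how many had a promoter region in both replicates. The shares to set beside these counts are 39.1% of all protein-coding genes and 62.4% of those with a CpG ratio of at least 0.6. The lists were not divided by CpG ratio, and no list was tested against either share. Isozymes outside the set, most of them forms of testis, liver or other special tissues, had 3 of 15: Eno4, H6pd and Adpgk. Eno4, with 14.1 and 12.1, shares its region with the start of Hspa12a. The testis forms Pgk2, Gapdhs and Ldhc had none.

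Steps that lead away from pyruvate had 11 of 12, the most complete of the lists, with Dld, a dehydrogenase subunit of the pyruvate dehydrogenase complex, at percentiles 94.9 and 92.1 and Pdk2, a kinase that inhibits it, at 85.2 and 98.2. Pdk4 had none. Genes that control flux had 8 of 10, led by Tigar, a fructose-2,6-bisphosphatase, at 97.1 and 96.0 and Adpgk at 89.4 and 95.2, and Gckr and Pfkfb3 had none. The pentose branches and NADPH use had 8 of 10, with Shpk at 94.0 and 91.8 and Idh1 at 88.7 and 90.5, whose regions also lay within 1000 bp of a start of Ctns and of Pikfyve, and Me1 and Prps1l1 had none.

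Glycogen and hexose entry had 11 of 14, led by Khk at 94.5 and 88.1 and Pygb at 93.3 and 83.5, with none at Gys2, the liver glycogen synthase, and Pygm, the muscle phosphorylase. Transport of glucose and lactate had 7 of 10, led by Slc37a4 at 90.7 and 98.8 and by Slc2a1, the glucose transporter of red cell precursors, at 85.3 and 86.6, with none at Slc16a7. Gluconeogenesis had 3 of 7, close to the background of all genes, with Pcx at 87.6 and 93.6 and Pck2 at 84.9 and 68.4, and none at Fbp1 and Fbp2. Transcription factors known to act on glycolytic genes, with their regulators, had 9 of 14, led by Arnt at 99.7 in both replicates and Hif1a at 97.3 and 95.9, and Egln1 and Egln3 had none.

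**Figure D5:**
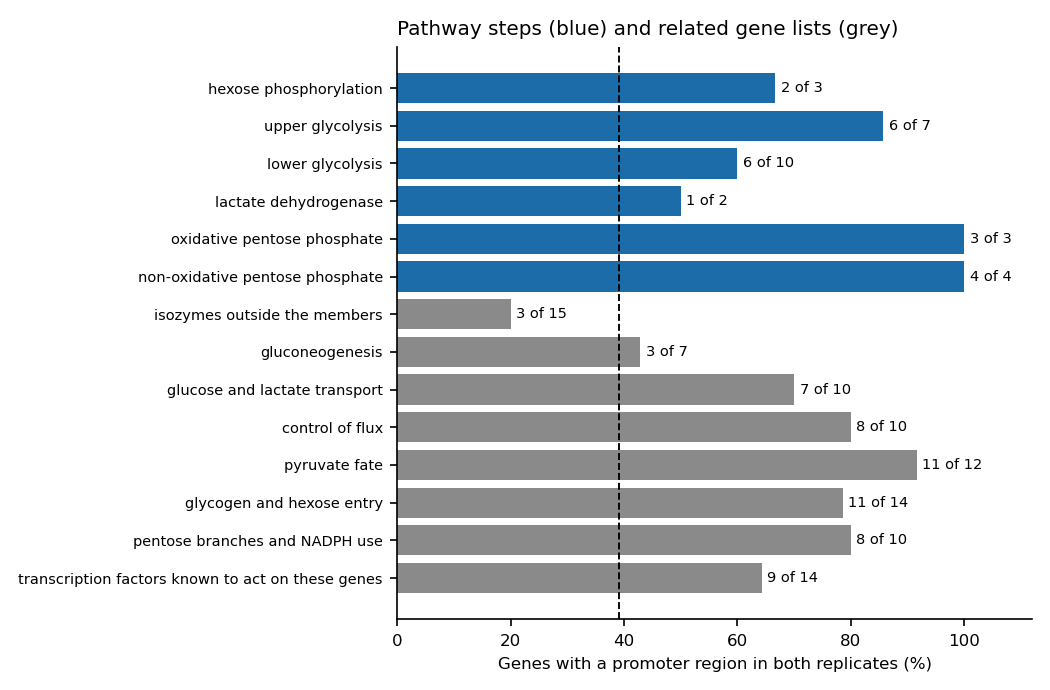
Share of genes with a promoter region in both replicates (bars from 0, in percent, with counts) for the steps of the pathways in blue and for related gene lists in grey; the dashed line is the 39.1% of all protein-coding genes. Both pentose phosphate branches reach 3 of 3 and 4 of 4, lower glycolysis 6 of 10, and the isozymes outside the set, at 3 of 15, are the only bar left of the line.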

How the data were processed

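ATAC-seq peak lists of 2 replicates of G1E cells on mm10 were used, with replicate numbers from the labels. Each deposited peak has a signal value and a −log10 p value as the authors' peak caller gave them, and the deposited signal is not scaled between lists. The thresholded lists were made by the authors with the irreproducible discovery rate, per the notes deposited with the files. Which aligner and peak caller made them, and in which version, is not given in the sources used here. The 26083 and 27810 peaks were merged where they overlapped or touched, on 21 chromosomes, keeping the summit and signal of the strongest peak. Starts came from GENCODE M21, and sequences from the genome of the same build and from RefSeq windows, which covered 16522 gene symbols. CpG ratios used 54471 windows of the genome. The members, lists and named genes were chosen with earlier results of these data known: all 29 members are named, and of each related list the 2 with the highest mean percentile and the first 2 in alphabetical order with no region in either replicate. Further isozymes were named after their values were seen. Python 3.11.15, NumPy 2.4.6, pysam 0.24.0, samtools 1.23.1 and matplotlib 3.10.9 were used, and the placement of regions was tested on simulated data. Alternatives were other windows, lists, start sites, overlaps and radii, and leaving out each replicate.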

Additional observations from a re-analysis of the deposited data

How the results depend on the processing

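The count of genes with a promoter region in both replicates, 22, stayed between 20 and 23 under every alternative tried but 1: in the stronger 50% of regions it was 11, and the genes lost were Gpi1, Pfkp, Tpi1, Gapdh, Pgam1, Pkm, Ldha, G6pdx, Pgls, Tkt and Taldo1. With the outermost 5′ end alone, Hk1 and Ldha were lost. The mean share of genes, 77.6%, was 81.0% with a window of 2000 bp and with the lenient lists, 48.3% in the stronger 50% and 70.7% with the outermost 5′ end. The median percentile, 56.2, was 71.4 in the longer lenient lists and 62.6 with unmerged intervals, and it ranged from 58.7 to 66.6 when a replicate was left out. Genes with a distal region, 18, fell to 6 in the stronger 50%, and the 24 pairs became 8. The pairs numbered 45 with the lenient lists, 14 within 25 kb, 45 within 100 kb, and from 31 to 42 when a replicate was left out and no second list was required. Of the 29 genes, 16 kept their call, a region in every list used or not, under each of the 10 promoter alternatives. The shares of all protein-coding genes were not computed under the alternatives. Whether the set stayed above them there, as in the stronger 50%, is therefore not known.

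Percentiles rank a region within its list and give no amount of accessibility. No paired analysis was possible because there is 1 group. Depth is unknown, RNA was not measured, and peaks under the authors' threshold are not seen in the thresholded lists behind the main results. The longer lenient lists were read only for single genes and as an alternative.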
